A study of Bos taurus with 3 samples.

Results

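The cornified envelope and late differentiation genes followed here were 9 genes taken by name, TGM1, TGM3, PPL, EVPL, SCEL, TMEM79, TMEM45B, A2ML1 and LOR, out of the 19533 genes in the count table. All 9 were listed in the table, and the rule that names them sets no limit on their level. The study sampled the rumen wall of 3 adult Holstein dairy cows that received no experimental treatment, stripped off the muscle, freed the epithelial cells with enzymes, and made 1 droplet library per cow that counts the 3' ends of transcripts as unique molecular identifiers (UMIs). The study's own clustering had removed cells that were not epithelial, and 20728 cells remained, 3369 from cow 1, 7401 from cow 2 and 9958 from cow 3. The question asked was in which order the 9 genes came on across cells ordered by other genes and by mitochondrial RNA.

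The rumen is lined by a stratified squamous epithelium in which cells are born at the base, move through spinous and granular layers, and end as dead cornified cells at the lumen. In the last of these steps a keratinocyte builds a cornified envelope, a shell of proteins welded together beneath the plasma membrane while nucleus and organelles are broken down. Periplakin (PPL) and envoplakin (EVPL) are plakin scaffold proteins on which the envelope starts. Sciellin (SCEL) and loricrin (LOR) are envelope precursors, and loricrin is a main building block of the shell in skin. Transglutaminases form the cross-links, TGM1 at the plasma membrane and TGM3 in the cytosol. TMEM79, also called mattrin, is a membrane protein needed for secretion from lamellar granules in skin. A2ML1 is a protease inhibitor of the alpha-2-macroglobulin family made in the upper layers of stratified epithelia, and TMEM45B is a membrane protein for which no role is given here.

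Cells were put in order without any of the 9 genes. The 3 genes used were GJA1 (connexin 43, a gap junction channel), GSTA1 (a glutathione transferase) and BPIFA2C (a secreted protein of the BPI fold family). The share of a cell's UMIs from 13 mitochondrial protein genes was added as the fourth measure. Class 0 held 16495 cells with fewer than 2 UMIs of GJA1, fewer than 2 of GSTA1 and fewer than 5 of BPIFA2C. Classes 0 to 2 also required a mitochondrial share of at least 1%. Class 1 held 116 cells with at least 2 UMIs of GJA1, fewer than 2 of GSTA1 and fewer than 5 of BPIFA2C. Class 2 held 685 cells with at least 2 UMIs of both GJA1 and GSTA1 and fewer than 5 of BPIFA2C. In class 1, 49.1% of cells still held a GSTA1 UMI and 39.7% a BPIFA2C UMI, against 9.58% and 3.22% in class 0. Class 3 held 528 cells with at least 5 UMIs of BPIFA2C and a mitochondrial share of at least 1%. Class 4 held 55 cells with at least 5 UMIs of BPIFA2C and a mitochondrial share under 1%. The order of the classes was set by this rule and is not a measured time. Steps 1 to 4 are the comparisons of each class with the class before it.

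The classes differed in depth and in size between cows. The median cell held 9719 UMIs in class 0, 16614 in class 2, 18317 in class 3 and 3590 in class 4, and 40.3% of class 3 cells had 20000 UMIs or more against 4.15% of class 0 cells. Levels are given as UMIs of a gene per 10000 non-mitochondrial UMIs of the cells summed. Class 1 held 8 cells in cow 3 and class 4 held 5 cells in cow 2, so these 2 of the 15 sums of 1 class in 1 cow were shown but not tested. Basal keratinocyte markers were found in every class. DLK2, the study's marker of granule cells, was at a median of 1.11 per 10000 over cows in class 0 and 0.145 in class 3, and had no UMI in class 4. Of 5 fibroblast markers measured none had a UMI in class 1 or class 4, and the summed level of 8 immune markers was at most 0.264 in any cow in classes 0 to 3 and between 0.279 and 1.49 in class 4. The part of other cell types in the results was not tested. The cow libraries shared 35 cell barcodes, and leaving out the 70 cells concerned ended no call on the genes described here.

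**Figure D1:**
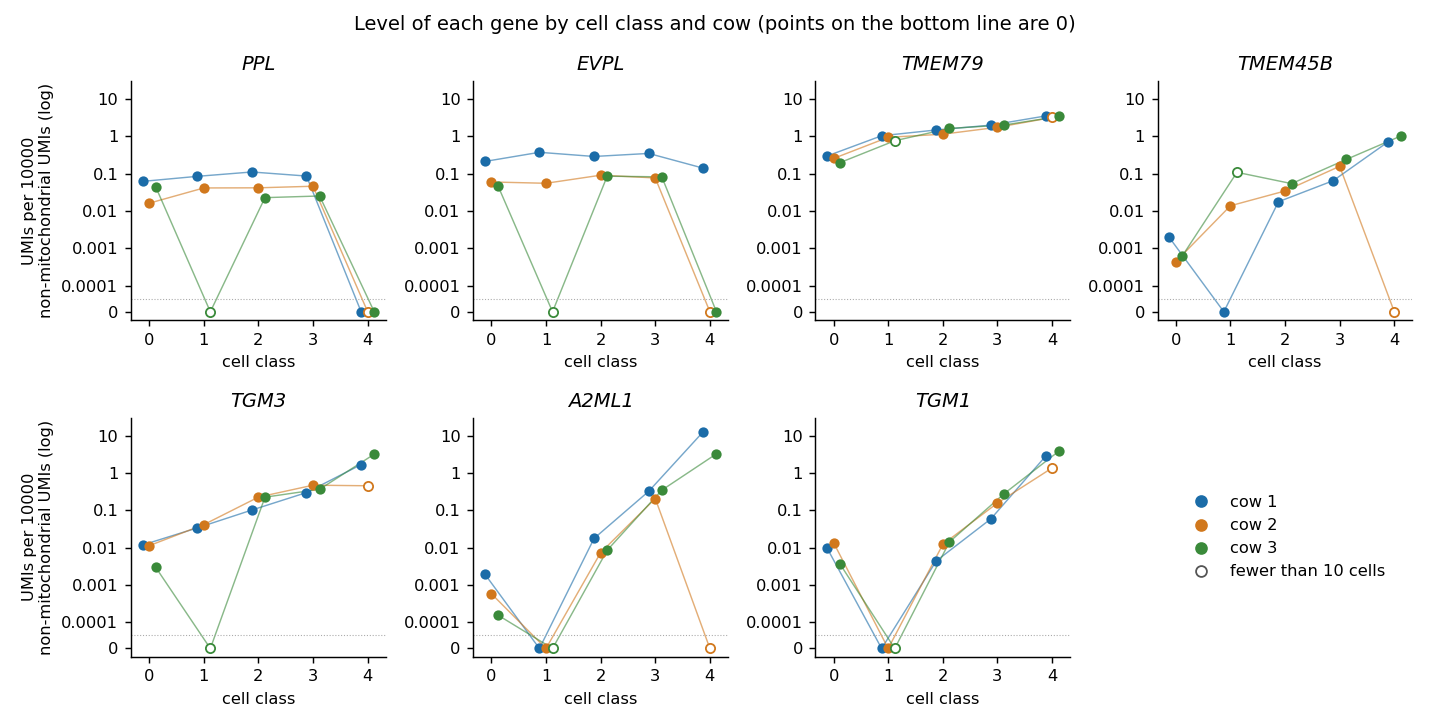
Level of each gene (UMIs per 10000 non-mitochondrial UMIs, log axis with 0 on the bottom line) in the 5 cell classes, 1 point and line per cow, open points where a cow had fewer than 10 cells. TMEM79 climbed over the whole range, TGM1 and A2ML1 stayed near 0 through class 2 and then rose, and PPL and EVPL showed no called step.

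The 9 genes fell into separate patterns. PPL and EVPL were present in class 0, which pools many kinds of keratinocyte, and did not pass the test at any step. TMEM79 was called higher in class 1, the cells set by GJA1. Their GSTA1 and BPIFA2C levels were also above class 0, at 0.404 against 0.104 and 0.616 against 0.0410 per 10000. Cells with GSTA1 but fewer than 2 GJA1 UMIs, which were not tested, also held more TMEM79 than class 0 (0.639 against 0.236 per 10000). TGM3 and TMEM45B were both higher in class 2 than in class 0. At step 1 their fitted folds of 4.42 and 11.5 did not pass. They came from 5 UMIs of TGM3 and 1 of TMEM45B in the class 1 sums fitted. The difference between genes in these folds was not tested. TGM1 and A2ML1 rose in the cells with BPIFA2C and again in those with little mitochondrial RNA. SCEL had 6 UMIs in all cells and LOR had 1, all of them in class 0, so that neither could be placed. With 7931515 non-mitochondrial UMIs in class 3, a count of 0 there allows at most 0.00378 UMIs of either gene per 10000.

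The order was put in numbers as an onset position, the mean class number weighted by the level of the gene in each class, computed in each cow. A gene confined to class 4 has the position 4, and a gene with the same level in every class has the position 2. The position was 1.59 ± 0.25 for PPL, 1.82 ± 0.15 for EVPL and 2.92 ± 0.035 for TMEM79 (mean ± SD of 3 cows). It was 3.36 ± 0.60 for TMEM45B, 3.52 ± 0.37 for TGM3, 3.61 ± 0.57 for A2ML1 and 3.91 ± 0.059 for TGM1. The positions of PPL and EVPL below 2 rest in part on 0 and 2 UMIs in class 4, too few to show a fall. A pair of genes was called apart where the order was the same in all 3 cows and the mean difference was larger than its SD, since an exact permutation test on 3 paired differences cannot go below a two-sided p of 0.25. Of 21 pairs 16 were apart by this measure, which includes the 2 sums that were too small to test. Only 1 of the 6 pairs of neighbours in the order was apart, EVPL and TMEM79, with a difference of 1.10 ± 0.14 classes. TMEM79 came before TGM3 by 0.602 ± 0.37 classes and before TGM1 by 0.990 ± 0.076, in all 3 cows. A2ML1 and TGM1 were not apart: A2ML1 came later than TGM1 in cow 1 and earlier in cows 2 and 3.

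The wide spread of TMEM45B, TGM3 and A2ML1 came with the 5 class 4 cells of cow 2, in which TMEM45B and A2ML1 had no UMI. Leaving out class 4 shortens the scale to classes 0 to 3. A gene with UMIs in class 4 is then bound to get a lower position, and only the order can be compared. With class 4 left out, the positions were 2.11 ± 0.064 for TMEM79, 2.56 ± 0.037 for TGM3, 2.58 ± 0.22 for TMEM45B, 2.72 ± 0.19 for TGM1 and 2.95 ± 0.022 for A2ML1, so TGM1 and A2ML1 then changed places, as did TMEM45B and TGM3. Of the 21 pairs 17 were then apart, TMEM79 before TGM3 by 0.453 ± 0.027 classes and TGM1 before A2ML1 by 0.234 ± 0.17 among them. In a coarser reading TMEM79 reached 10% of its highest class level in class 1 and 50% in class 3, in each of the 3 cows. TGM1 first reached 10% in class 4, 3 and 4 in cows 1, 2 and 3, and 50% in class 4 in each of them. TMEM45B first reached 10% in class 4, 2 and 1 in cows 1, 2 and 3, TGM3 in class 3, 2 and 3, and A2ML1 in class 4, 3 and 3. TMEM45B, TGM3 and A2ML1 each reached 50% in class 4 in cows 1 and 3 and in class 3 in cow 2. These genes were thus not placed alike in the 3 cows.

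**Figure D2:**
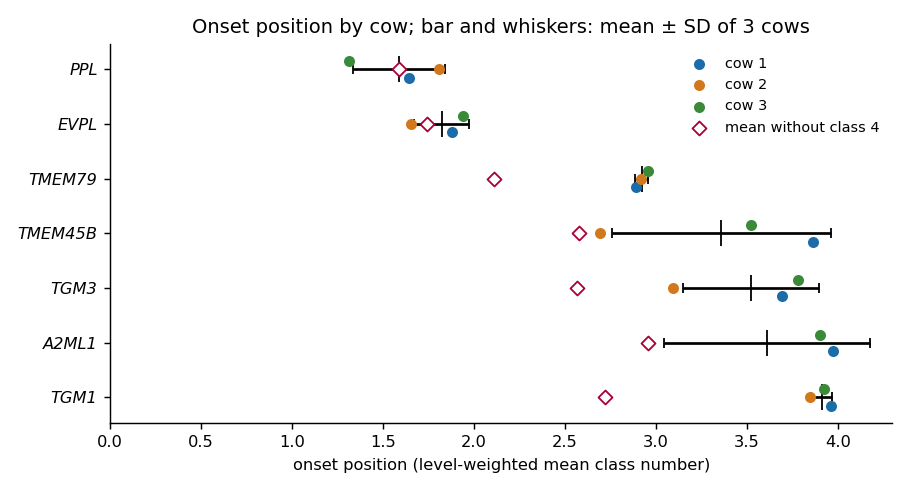
Onset position (level-weighted mean class number, x axis) of the 7 genes with at least 10 UMIs in every cow, with points for cows, bar and whiskers for mean ± SD, and diamonds for the mean without class 4. The diamonds lie on the shorter scale of classes 0 to 3. PPL and EVPL lie below 2, in part from 0 and 2 UMIs in class 4, too few to show a fall. TMEM79 lies at 2.92 with the cows close together, and TMEM45B and A2ML1 spread most.

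Both scaffold genes were present in class 0. That class pools cells with basal, cycling and DLK2 markers, so presence there does not tell how early in maturation the genes came on. EVPL (ENSBTAG00000010517) was at 0.211, 0.0597 and 0.0475 per 10000 in class 0 in cows 1, 2 and 3, and at 0.346, 0.0764 and 0.0818 in class 3. Cow 1 was the highest in both classes, and the cows differed more from each other than the classes did within a cow. EVPL passed in none of the 4 steps, with adjusted p between 0.30 and 1 in edgeR's quasi-likelihood test. It was 1.50-fold higher in class 2 than in class 0 (log2 0.58 ± 0.18 SE, adjusted p = 0.012, edgeR) and 1.56-fold higher in class 3 (log2 0.64 ± 0.18, adjusted p = 0.0078, edgeR), and these were the only comparisons in which it was called. Of the 9327 genes tested, 38.5% passed between class 2 and class 0 (18.2% higher, 20.3% lower) and 39.8% between class 3 and class 0 (19.4% higher, 20.4% lower). In class 4 EVPL had 2 UMIs, a pooled level of 0.0638 per 10000 with a 95% Poisson interval of 0.00773 to 0.230, which covers counting error only and includes the 0.204 of class 3.

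PPL (ENSBTAG00000002178) had 787 UMIs in 741 cells. Its levels were 0.0619, 0.0161 and 0.0443 per 10000 in class 0 in cows 1, 2 and 3, and 0.0859, 0.0459 and 0.0252 in class 3, so that the classes overlapped and cow 3 was lower in class 3. It was called in no step and in no comparison with class 0 (edgeR). PPL had no UMI in the 55 cells of class 4, where a count of 0 allows up to 0.0957 per 10000. That limit is above the 0.0605 of class 3, so a loss of PPL was not detectable at this depth.

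TMEM79 (ENSBTAG00000009436) had 8918 UMIs in 5224 cells. It stood at 0.295, 0.254 and 0.197 per 10000 in class 0 in cows 1, 2 and 3 and at 1.03, 0.935 and 0.757 in class 1, and every class 1 value was above every class 0 value. The rise was 3.72-fold (log2 1.89 ± 0.22, adjusted p = 4.0e-06, edgeR), and it passed in all 18 alternative analyses, at log2 0.98 with a minimum of 1 UMI of GJA1 and GSTA1. In the main fit class 1 came from cows 1 and 2, and it was 1 cow where either of these was left out. At this step 14.1% of all genes tested passed, 7.68% higher and 6.41% lower, and TMEM79 was the 1 gene of the set among them. Its level went on to 1.47, 1.13 and 1.61 in class 2 and to 1.98, 1.73 and 1.99 in class 3, higher in each cow at each step. Neither of these steps passed (log2 0.60 ± 0.20, adjusted p = 0.61, and log2 0.45 ± 0.13, adjusted p = 0.27, edgeR). With that lower minimum the first of them passed (log2 1.41, adjusted p = 8.3e-07, edgeR). The second did pass in 3 of 18 alternatives, and adjusted p for it ran from 0.00067 to 1 over them (edgeR and DESeq2). These 3 were without cow 3 (adjusted p = 0.010, edgeR), without a filter on low counts and with that lower minimum.

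In class 4 TMEM79 reached 3.48, 3.17 and 3.38 per 10000 in cows 1, 2 and 3, above every class 3 value, though the value of cow 2 was 7 UMIs in 1 of its 5 cells. The difference between class 4 and class 3 was 1.92-fold (log2 0.94 ± 0.23, adjusted p = 0.014, edgeR), set against a median log2 change of -0.43 over all genes at this step. This call was lost without cow 1 (log2 0.95, adjusted p = 0.22, edgeR) and without cow as a block (log2 0.91, adjusted p = 0.064, edgeR), with the fold about as large and adjusted p from 5.2e-05 to 0.22 over the alternatives. The size of the step depended on the measure. Counted as UMIs per cell, TMEM79 was lower in class 4 in all 3 cows, going from 2.84 to 1.67, from 3.05 to 1.40 and from 2.66 to 2.50 in cows 1, 2 and 3, and class 4 cells also held fewer UMIs in all.

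TGM3 (ENSBTAG00000001785), the cytosolic transglutaminase, was higher than class 0 by class 2. In class 0 it stood at 0.0118, 0.0113 and 0.00298 per 10000 in cows 1, 2 and 3, and in class 1 it had 5 UMIs over the 3 cows. In class 2 its level was 0.102, 0.225 and 0.224, all above class 0. Class 2 exceeded class 0 24.4-fold (log2 4.61 ± 0.32, adjusted p = 4.1e-10, edgeR), while neither of the 2 steps that make up this distance passed alone (adjusted p = 0.28 and 0.56, edgeR). Step 2 did pass without a filter on low counts (adjusted p = 0.00089, edgeR) and with a minimum of 1 UMI of GJA1 and GSTA1 (log2 4.24, adjusted p = 0.00047, edgeR). In cow 2 a single class 2 cell held 37 of the 92 TGM3 UMIs. Class 3 reached 0.298, 0.470 and 0.365, higher than class 2 in each cow, and the rise of log2 1.03 ± 0.28 did not pass (adjusted p = 0.14, edgeR). It did pass in 5 of 18 alternatives, in a range of adjusted p from 1.7e-05 to 1 (edgeR and DESeq2). These were without cow 3 (adjusted p = 0.0041, edgeR), without a filter on low counts and without cycling cells. The others were a minimum of 1 UMI of GJA1 and GSTA1 and a minimum of 10 BPIFA2C UMIs.

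The called step of TGM3 was the last. In class 4 it stood at 1.67 and 3.18 per 10000 in cows 1 and 3, and at 0.453 from 1 UMI in the 5 cells of cow 2. The fitted rise over class 3 was 8.27-fold (log2 3.05 ± 0.40, adjusted p = 2.6e-05, edgeR) and passed in all 18 alternatives. The class 4 sum of cow 2 was not in the fit. Its level of 0.453 was below the 0.470 of class 3 in that cow, so the fitted rise was not seen there. From 1 UMI a small rise and a fall could not be told apart.

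TMEM45B (ENSBTAG00000017602) was rare, with 218 UMIs in 175 cells, of which 11 UMIs lay in class 0. Its level was 0.00196, 0.000440 and 0.000627 per 10000 in class 0 in cows 1, 2 and 3, then 0.0177, 0.0343 and 0.0539 in class 2, with all class 2 values above class 0. Class 2 exceeded class 0 46.2-fold (log2 5.53 ± 0.57, adjusted p = 1.1e-07, edgeR). Class 3 was at 0.0644, 0.157 and 0.239, each above every class 2 value, a rise of 4.14-fold (log2 2.05 ± 0.40, adjusted p = 0.017, edgeR). That call was fragile. Without cow 1, cow 2 or cow 3 its adjusted p was 0.062, 0.12 and 0.083 (edgeR), at log2 2.19, 1.94 and 2.05, and without cow as a block it was 1.00 at log2 2.03, in a range of 5.3e-06 to 1.00 over the alternatives.

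In class 4 TMEM45B stood at 0.697 and 1.01 per 10000 in cows 1 and 3 and had no UMI in cow 2. The rise over class 3 was 6.63-fold (log2 2.73 ± 0.53, adjusted p = 0.0020, edgeR). It was lost without cow as a block (adjusted p = 0.054, edgeR) and with the mitochondrial limit at 0.5% (log2 1.69, adjusted p = 0.17, edgeR), the latter being the highest adjusted p over the alternatives and 1.1e-06 the lowest.

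TGM1 (ENSBTAG00000003920), the membrane-bound transglutaminase, stayed near its class 0 level through class 2. Its level was 0.00982, 0.0136 and 0.00360 per 10000 in class 0 in cows 1, 2 and 3, it had no UMI in class 1, and it was 0.00442, 0.0122 and 0.0142 in class 2. The difference between class 2 and class 0 did not pass (log2 0.32 ± 0.77, adjusted p = 0.78, edgeR), with 11 UMIs in class 2. The count of 0 in class 1 allows up to 0.0212 per 10000, which is above the levels on either side. In class 3 TGM1 rose to 0.0591, 0.157 and 0.277, all above class 2. These levels came from 7 of 260, 6 of 149 and 11 of 119 cells in cows 1, 2 and 3. A single cell held 13 of the 22, 12 of the 41 and 16 of the 44 UMIs in these cows. The fitted rise was 14.4-fold (log2 3.84 ± 0.63, adjusted p = 0.0035, edgeR). This call was lost without cow 1 (log2 4.05, adjusted p = 0.12, edgeR), without cow as a block (log2 3.82, adjusted p = 0.38, edgeR) and without cells of 20000 UMIs or more (log2 3.64, adjusted p = 0.14, edgeR), with folds close to the main one. Over the alternatives adjusted p ran from 6.1e-18 to 0.38 and the change from log2 3.06 to 4.44.

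TGM1 was called again at the last step. In class 4 it stood at 2.79, 1.36 and 3.79 per 10000 in cows 1, 2 and 3, the value of cow 2 resting on 3 UMIs, and every value was above class 3. The fitted rise was 29.7-fold (log2 4.89 ± 0.48, adjusted p = 7.3e-07, edgeR) and passed in all 18 alternatives, at log2 4.29 to 5.74. In UMIs per cell TGM1 was also higher in class 4 in all 3 cows, going from 0.0846 to 1.33, from 0.275 to 0.600 and from 0.370 to 2.80.

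A2ML1 (ENSBTAG00000004097), the protease inhibitor, was the most concentrated of the genes described. Its 483 UMIs lay in 85 cells, up to 37 in a single cell, and 47.4% of them were in class 3 and 47.8% in class 4. In class 0 it had 9 UMIs in 16495 cells and in class 1 none. Class 2 held 10 UMIs, 4 of them from 1 cell of cow 1, and this small count was called 13.6-fold higher than class 0 (log2 3.76 ± 0.98, adjusted p = 0.0044, edgeR). In class 3 its level was 0.322, 0.206 and 0.346 per 10000 in cows 1, 2 and 3, each far above the class 2 levels of 0.0177, 0.00734 and 0.00851 in class 2. The rise was 25.9-fold (log2 4.70 ± 0.47, adjusted p = 5.3e-06, edgeR) and passed in all 18 alternatives, at log2 3.67 to 5.48.

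In class 4 A2ML1 climbed to 12.8 and 3.25 per 10000 in cows 1 and 3, while the 5 cells of cow 2 held none. A count of 0 in those 5 cells allows up to 1.36 per 10000, which is above the 0.206 of class 3 in cow 2, so no fall was detectable there. That limit is below the 12.8 and 3.25 of cows 1 and 3, but it covers counting error only. A2ML1 was found in 16 of 30 and 10 of 20 class 4 cells of those cows, so 5 cells are too few to compare cow 2 with them. BPIFA2C in class 4 was at 152, 43.0 and 199 per 10000 in cows 1, 2 and 3, and its part was not tested. In cow 2 the 4 cells of any class with BPIFA2C at 100 per 10000 and more held 17 A2ML1 UMIs. The fitted rise over class 3 was 25.5-fold (log2 4.67 ± 0.33, adjusted p = 3.6e-09, edgeR), and it passed in all 18 alternatives, at log2 3.49 to 5.52. The size differed between cows, at log2 3.49 without cow 1 and 5.36 without cow 3. UMIs per cell went from 0.462 to 6.10 in cow 1 and from 0.462 to 2.40 in cow 3.

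Read by step, the calls were these. At step 1 TMEM79 was called. At step 2 none of the 7 genes tested was called, and 0.0643% of all genes were, 0.0322% higher and 0.0322% lower. At step 3 TMEM45B, TGM1 and A2ML1 were called higher, where 0.44% of all genes passed, 0.332% higher and 0.107% lower. At step 4 TMEM79, TGM3, TMEM45B, TGM1 and A2ML1 were called higher, where 6.74% of all genes passed, 3.2% higher and 3.55% lower. Step 4 rested on cows 1 and 3, and its split of 298 genes higher and 331 lower was 415 and 183 with DESeq2 and 257 and 462 with library size scaling. At step 1 the split was 716 and 598, and 871 and 451 with library size scaling. Between class 4 and class 0, where 16.4% of all genes passed (7.81% higher, 8.6% lower), the 5 genes called at step 4 were called too, from 14.7-fold for TMEM79 (adjusted p = 3.3e-10, edgeR) upwards. SCEL and LOR did not pass the filter on low counts, and a gene that passes it through the class where it is high is bound to differ, so these counts describe the genes and do not support a rule about them.

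**Figure D3:**
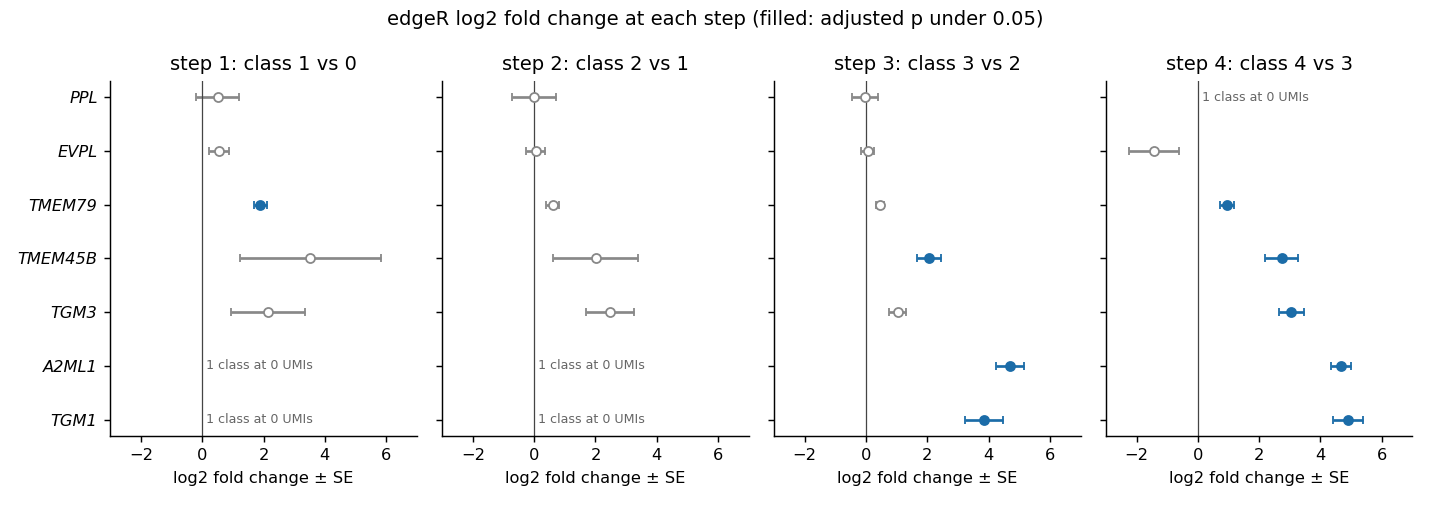
Fitted log2 fold change ± SE (edgeR) of 7 genes at each of the 4 steps, filled where the adjusted p was under 0.05, and not drawn where 1 of the classes had no UMI of the gene. TMEM79 is filled at step 1, TMEM45B, A2ML1 and TGM1 at step 3, and all 5 rising genes at step 4.

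Pooled over cows, the share of cells with at least 1 UMI was highest in class 4 for the 5 rising genes once depth was made equal. Each cell was thinned to 2000 non-mitochondrial UMIs by expectation, which left out 8 of the 55 class 4 cells, and the cells of all cows were pooled. The thinned share of TMEM79 cells was 4.12%, 16.8%, 24.2%, 29.6% and 38.1% in classes 0 to 4, against 17.2%, 61.2%, 79.6%, 80.9% and 60% before thinning. For TGM3 the thinned share was 0.134%, 0.923%, 3.08%, 5.77% and 26.6%. A2ML1 went from 0.0141% in class 0 to 2.64% in class 3 and 33.6% in class 4, and TGM1 from 0.153% to 1.63% and 34.3%. Before thinning A2ML1 was seen in 8.14% of class 3 and 47.3% of class 4 cells, and TGM1 in 4.55% and 40%. TMEM45B after thinning went from 0.0206% in class 0 to 2.65% in class 3 and 12.5% in class 4. Cow 2 kept 4 class 4 cells after thinning. Its thinned share fell from class 3 to class 4 for TMEM79 (27.7% to 18.6%), TGM3 (7.11% to 0%), TMEM45B (3.08% to 0%) and A2ML1 (2.75% to 0%). For TGM1 it rose, from 1.99% to 37.7%. EVPL after thinning was at 4.53%, 1.16% and 0.964% in class 0 in cows 1, 2 and 3 and at 6.84%, 1.55% and 1.62% in class 3, and in class 4 it was found in cow 1 only. No cell type that should lack these genes was set apart in these cells, so a background share from RNA free in the droplets was not measured.

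Class 3 and class 4 differ in BPIFA2C as well as in mitochondrial RNA, with 17.0 and 167 BPIFA2C UMIs per 10000. To look at each in turn, all cells were binned by BPIFA2C level and then split at a mitochondrial share of 1%, with the cows pooled. In the cells that kept mitochondrial RNA, A2ML1 was at 0.00792 per 10000 where BPIFA2C was 2 to 10, at 0.129 where it was 10 to 30, at 1.201 where it was 30 to 100 and at 6.07 in the 13 cells at 100 and more. TGM1 was at 0.0238, 0.117, 0.346 and 2.38 in the same bins. Both genes thus climbed with BPIFA2C among cells with mitochondrial RNA, and TGM3 did likewise, with 0.147, 0.452, 0.703 and 2.84. These pooled values carry no replicate check, and the cells at 100 and more were 5, 3 and 5 in cows 1, 2 and 3.

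Among cells under 1% mitochondrial share, TGM1 and A2ML1 were most abundant where BPIFA2C was high. In the 141 such cells with no BPIFA2C UMI neither had a UMI, whereas TMEM79 was at 0.840 and TGM3 at 0.250 per 10000 there. In the 15 cells with BPIFA2C at 30 to 100, A2ML1 was at 0.315 with a 95% Poisson interval of 0.0381 to 1.14, against 1.201 (0.988 to 1.45) in those with mitochondrial RNA, so that these intervals overlapped. TGM1 had no UMI in these 15 cells, which allows up to 0.472, and was at 0.346 with mitochondrial RNA, so no difference was detectable. TGM1 was at 0.192 (0.0396 to 0.562) in cells under 1% with BPIFA2C at 2 to 10, against 0.0238 (0.0133 to 0.0392) in those with mitochondrial RNA. At 10 to 30 it was at 0.871 (0.320 to 1.90) against 0.117 (0.0804 to 0.166), the latter from 5 of 192 cells. The TGM1 intervals were apart in these lower bins, barely at 2 to 10, from 3 UMIs in 2 cells and 6 in 4. A2ML1 at 10 to 30 was at 0.145 against 0.129. At 2 to 10, 10 to 30 and 30 to 100, TMEM79 was lower under 1% (0.769 against 1.33, 1.60 against 2.13, 1.89 against 2.76). TGM3 was higher there (0.192 against 0.147, 0.726 against 0.452, 0.944 against 0.703), and the intervals of both overlapped. In the 26 cells at 100 and more, A2ML1 was at 14.7 (12.9 to 16.8) and TGM1 at 6.01 (4.85 to 7.36). At this highest BPIFA2C level the cells with mitochondrial RNA had 6.07 (4.80 to 7.56) for A2ML1 and 2.38 (1.62 to 3.38) for TGM1, so for these genes the intervals did not overlap. For TGM3, at 3.94 (3.02 to 5.06) and 2.84 (2.00 to 3.92), for TMEM45B, at 1.55 (0.994 to 2.31) and 0.691 (0.316 to 1.31), and for TMEM79, at 5.49 (4.39 to 6.79) and 4.22 (3.18 to 5.50), they did. The intervals cover counting error only, not the spread between cows or between cells. The bin of 100 and more has no upper limit, so BPIFA2C was not held equal in it. Its cells under 1% were 14, 1 and 11 in cows 1, 2 and 3, another mix than in those with mitochondrial RNA. The part of BPIFA2C level and of cow in these differences was not tested.

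**Figure D4:**
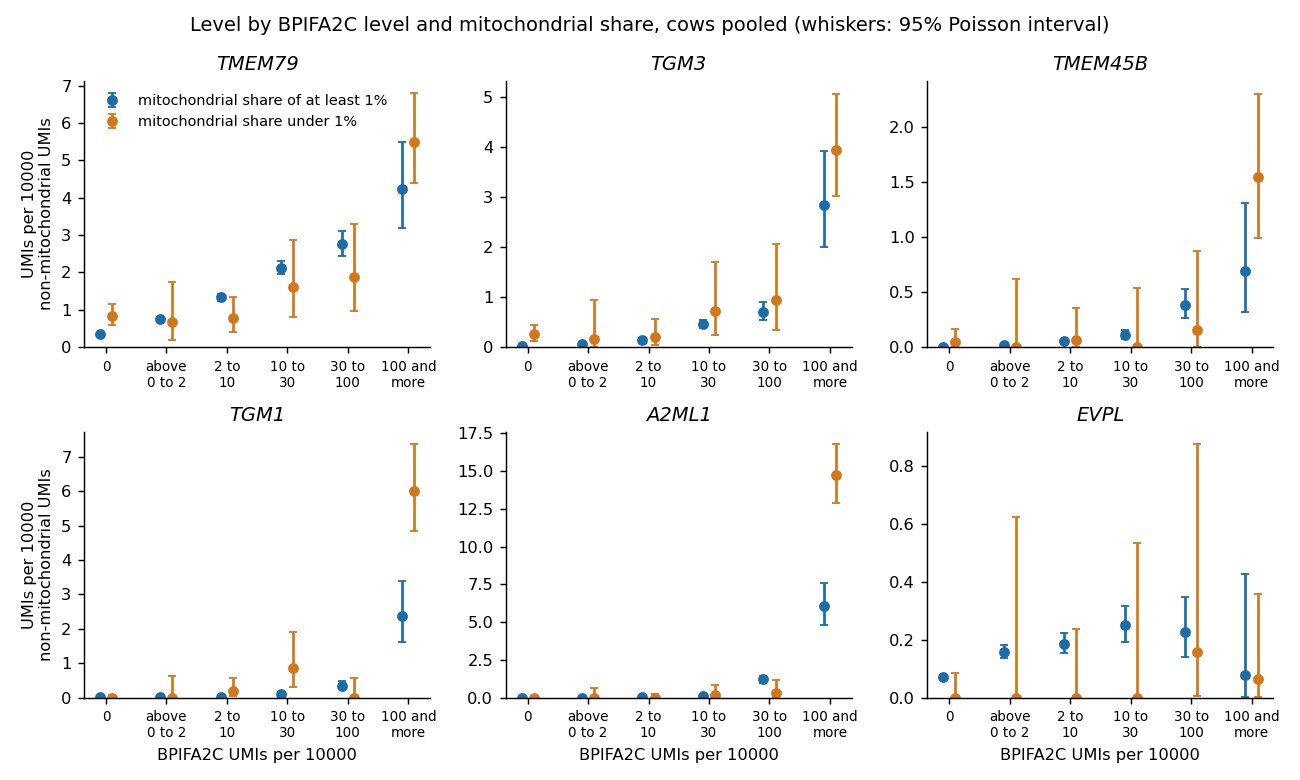
Pooled level of 6 genes (UMIs per 10000 non-mitochondrial UMIs) by BPIFA2C level, in cells with a mitochondrial share of at least 1% and under 1%; whiskers are 95% Poisson intervals. All but EVPL reach their highest level at 100 BPIFA2C UMIs and more, where TGM1 and A2ML1 are higher in the cells under 1%.

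The climb was also followed in each cow where bins held at least 20 cells. Along BPIFA2C levels of 0, above 0 to 2, 2 to 10 and 10 to 30, the mean TMEM79 level of the 3 cows was 0.355, 0.750, 1.31 and 2.09 per 10000. TMEM79 ranged from 2.02 to 2.15 between cows in the last of these bins. A2ML1 was at 0.00158, 0.00366, 0.00610 and 0.134, so most of its climb lay above 10 BPIFA2C UMIs, with a range of 0.0202 to 0.340 between cows. TGM1 in that bin ranged from 0.00692 to 0.281 between cows. PPL did not climb, at 0.0428, 0.0609, 0.0608 and 0.0428 in these bins. Along mitochondrial share, in cells with at least 5 BPIFA2C UMIs, only the bins of 10% to 20% (246 cells) and of 20% and more (261 cells) held enough cells in each cow, with 8 cells between 1% and 5% and 13 between 5% and 10%. A2ML1 was at 0.0278, 0.149 and 0.221 per 10000 in cows 1, 2 and 3 in the former and at 0.269, 0.469 and 0.842 in the latter. TMEM79 and TGM3 were also higher in the bin of larger share in each cow, TGM1 in cows 1 and 2 and TMEM45B in cow 3. TGM1 in cow 3 and TMEM45B in cows 1 and 2 were lower there. Pooled over cows, A2ML1 was at 4.94 under 0.5% (38 cells), 19.0 at 0.5% to 1% (17 cells), 23.6 at 1% to 5% and 0.454 at 5% to 10%. TGM3 was at 1.97, 3.87, 10.6 and 0.858 in these bins. Both were thus highest just above the limit of 1%, in 8 cells, 7 of them from cow 1. TMEM79, TMEM45B and TGM1 were highest at 0.5% to 1%, at 4.24, 2.21 and 4.79.

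Finer bins of GJA1 and GSTA1 were also read. In the cells of class 0 and class 1, which have fewer than 2 GSTA1 and fewer than 5 BPIFA2C UMIs, the mean TMEM79 level of the 3 cows was 0.243 per 10000 without GJA1 and 0.429 with GJA1 above 0 to 2. In the 1 cow with enough cells it was 0.920 with GJA1 at 2 to 5. TGM3 was also higher with GJA1 above 0 to 2, at a mean of 0.0185 from 8 UMIs against 0.00862 without GJA1, but lower in cow 1. TMEM45B had no UMI in the 368 cells with GJA1 above 0 to 2 and 2 UMIs in the 74 cells at 2 to 5. Along GSTA1, in the cells of class 1 and class 2, TMEM79 went from 0.833 without GSTA1 (mean of 2 cows) to 1.64 at 10 and more (mean of 3 cows). TMEM45B had 1 UMI in 59 such cells without GSTA1 and a mean level of 0.0626 at 10 and more, with cows between 0.0507 and 0.0723. TGM3 had no UMI without GSTA1, and a mean level of 0.0578 at above 0 to 2, 0.270 at 5 to 10 and 0.159 at 10 and more. The value at 5 to 10 was 0.502 in cow 2, which held the cell of 37 UMIs, and 0.136 and 0.172 in cows 1 and 3.

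The late genes tended to be found in the same cells. In class 3, A2ML1 was detected in 43 cells, 19, 14 and 10 of them in cows 1, 2 and 3. Of these 43 cells 32 also held TGM3, 19 held TMEM45B and 18 held TGM1. Of the other 485 class 3 cells 101 held TGM3, 58 held TMEM45B and 6 held TGM1. The median depth was 20959 UMIs in the cells with A2ML1 and 18106 in those without, and BPIFA2C was at 50.9 and 13.8 per 10000. Depth and BPIFA2C level therefore moved with A2ML1, and their part in the shared detection was not tested.

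Class 4 was split in the same way. A2ML1 was detected in 26 class 4 cells, of which 17 held TGM1, 16 held TGM3 and 11 held TMEM45B. In the 29 class 4 cells without A2ML1, 5 held TGM1, 9 held TGM3 and 2 held TMEM45B, at a median depth of 4035 UMIs against 3538. BPIFA2C was at 291 per 10000 in the former and 48.2 in the latter. Cells with at least 3 of the 5 rising genes were 2 of 16495 in class 0, none of 116 in class 1, 16 of 685 in class 2, 59 of 528 in class 3 and 20 of 55 in class 4. All 5 genes were found together in 10 cells of class 3 and in 10 of class 4.

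**Figure D5:**
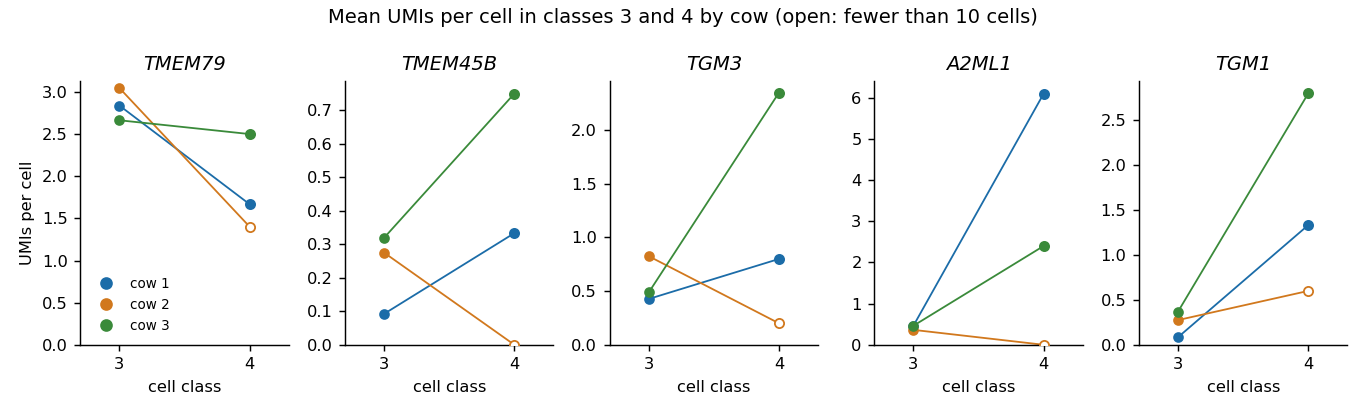
Mean UMIs per cell of the 5 rising genes in class 3 and class 4, 1 line per cow, open points for the 5 class 4 cells of cow 2. TGM1 rises in all 3 cows, TMEM79 falls in all 3, and TMEM45B, TGM3 and A2ML1 rise in cows 1 and 3 and fall in cow 2.

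Related genes were counted from lists of the same pathway. Of 30 envelope protein symbols listed, PPL, EVPL, SCEL and LOR among them, 15 were in the table and 6 were tested. PKP1 was called higher at step 1, where 7.68% of all genes were higher. At step 4, 3.2% of all genes were higher and 3.55% lower. IVL (involucrin, an early envelope protein) rose there by log2 5.07 ± 0.90 (adjusted p = 0.00093, edgeR). PKP1 (a desmosomal plaque protein) and ANXA1 also rose at step 4, while DSP (desmoplakin) fell by log2 1.31. Among 7 plakins, PPL and EVPL included and all tested, none was called at steps 1 to 3 and 3 were lower at step 4, where 3.55% of all genes were lower, namely DSP, PLEC (plectin) and MACF1, with a median log2 change of -1.996 against -0.43 over all genes. Of 7 transglutaminases 6 were in the table and 4 were tested, and TGM1 and TGM3 were the ones called in any step. TGM1 was higher at step 3, where 0.332% of all genes were higher, and both were higher at step 4, where 3.2% were.

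The shares of all genes called higher and lower were 7.68% and 6.41% at step 1, 0.332% and 0.107% at step 3 and 3.2% and 3.55% at step 4, against which the following counts are read. Among 11 tested proteases and inhibitors of shedding, CTSD and SERPINB12 rose at step 1, A2ML1 and SPINK5 rose at step 3, and the latter 2 rose at step 4 together with CST6 and SERPINB2. SPINK5, an inhibitor of the kallikreins that cut corneodesmosomes, rose by log2 6.45 ± 0.42 at step 4 (adjusted p = 1.8e-09, edgeR). Of 7 tested barrier lipid genes DEGS2 and SULT2B1, enzymes of ceramide and cholesterol sulfate synthesis, rose at step 4 by log2 5.20 ± 1.14 and 4.55 ± 0.62, and ABHD5 rose at step 1 by 1.48 ± 0.49. KRT10 rose at step 1 and KRT78 at step 4, both of the 2 late keratins tested, and of 7 late junction genes DSC2 rose and DSC3 fell at step 4. Of 14 tested late regulators 4 rose at step 1, where TMEM79 rose, namely ZNF750 (log2 2.31 ± 0.46), OVOL1 (1.85 ± 0.51), PPARD and KLF5, and KLF4 fell. KLF5 fell by 1.66 at step 4. No gene of any of these lists was called at step 2.

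The genes most like each member over the 13 tested sums were also found, by Pearson's r of log2 counts scaled to library size, as a description with points that share cows and depth. TGM1 was most like C7H5orf46 (r = 0.963), SPINK5 (0.959) and ARHGEF10L (0.958). A2ML1 was most like LYPD2 (0.977) and C7H5orf46 (0.973). TGM3 was most like PKP1 (0.973), TMEM45B most like CRB3 (0.975) and TMEM79 most like RBP2 (0.975). EVPL was most like SH3D19 (0.979) and PPL most like ENSBTAG00000017734 (0.985), for which the table gives no symbol.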

How the data were processed

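The authors ran Cell Ranger 3.1.0 on the cow genome of Ensembl 99, kept cells by gene number, UMI number and mitochondrial share, removed doublets with DoubletFinder and removed non-epithelial clusters. They deposited UMI counts per gene and cell, which were used as they stand. The authors also deposited natural log values, UMIs scaled to 10000 per cell, used here only to find the gene order of the count table, which matched for all 19533 genes within 1e-06. Barcode suffixes 1 to 3 were read as the cow numbers of the sample titles. The members, gene lists and classes were chosen with earlier results of these data known.

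Counts were summed per cow and class where at least 10 cells were present (13 of 15 sums). The mitochondrial and classing genes were left out. edgeR 4.0.16 in R 4.3.3 (filterByExpr, TMM, quasi-likelihood test, cow as a block) was fitted to all 5 classes together, and p-values were adjusted by Benjamini-Hochberg over the 9327 genes of a contrast, with 0.05 as the threshold. Cells of 1 cow are not replicates. With cow as a block, p-values measure how far class differences vary between cows, with 1 estimate shared by all classes. In the main fit class 1 came from cows 1 and 2 only and class 4 from cows 1 and 3 only. Where a class kept 1 cow, that sum was taken to vary like the other classes. This held for class 1 without cow 1 or 2 and for class 4 without cow 1 or 3. Cow as a block rests on the classes coming from the same animals: deviations from the class mean had a mean correlation of 0.359 to 0.423 between classes of the same cow, and -0.185 between cows. Non-mitochondrial UMIs were 31668126, 83928774 and 90686796 in cows 1, 2 and 3. A count of 0 was taken to allow up to 3 UMIs, and Poisson intervals are exact at 95%. Named genes were the members, the list genes with the largest called changes (up to 4 a list) and the 3 genes most like each member. DESeq2 1.42.0, other scaling, filters, class limits, left-out cows and left-out cells were alternatives. Those on cells per sum, deep cells, shared barcodes and class 4 were chosen after the data were seen. No sequences or coordinates are printed, since none were used here.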

Additional observations from a re-analysis of the deposited data

Results flagged for a closer look

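Cells outside the 5 classes also held the genes described, a signal in cells that none of the tests between classes used, though the bins by BPIFA2C level held them. In the 2662 cells with GSTA1 but fewer than 2 GJA1 UMIs, the pooled levels per 10000 were 0.639 for TMEM79, 0.0760 for TGM3, 0.0110 for TMEM45B, 0.00534 for TGM1 and 0.00119 for A2ML1, the latter from 4 UMIs in 1 cell. EVPL was at 0.0819 and PPL at 0.0472 in these cells. Each was above the limit that a count of 0 allows, 0.000890. TMEM79 and TGM3 lay between class 0 and class 2 in each cow.

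In the 187 cells under 1% mitochondrial share with fewer than 5 BPIFA2C UMIs, at a median of 2744 UMIs per cell, TMEM79 was at 0.858 and TGM3 at 0.238. Their limit for a count of 0 was 0.0477, a level that TGM1, PPL and TMEM45B, with 3 UMIs each, did not exceed, and A2ML1 and EVPL had no UMI.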

How the results depend on the processing

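Of 504 fits of a member at a step under an alternative, 14 lost a call, 11 gained one, 452 kept direction and call, and 27 turned direction, none of the latter called. Turned values at log2 were, for PPL at step 2 (-0.014), 0.00011 with DESeq2, 0.033 without a filter, 1.07 and 0.21 with GJA1 and GSTA1 minimums of 1 and 3, 0.12 with 10 BPIFA2C UMIs, 0.0088 with the mitochondrial limit at 0.5%, 0.18 without cycling cells, 0.10 with sums of 5 cells, and -0.52 to 0.35 over left-out cows. At step 3 PPL turned to 0.015 without the block, -0.23 to 0.25 over left-out cows and 0.27 without deep cells. EVPL turned at step 1 to between -0.15 and 0.82 over left-out cows, at step 2 to -0.021 with library size scaling, -0.38 without the block, -0.17 to 0.88 over left-out cows, -0.44 with 2 BPIFA2C UMIs and -0.0011 without deep cells, and at step 3 to between -0.16 and 0.15 over left-out cows and -0.090 with a minimum of 3. A minimum of 1 UMI gave TGM1 0.71 at step 1 and -0.58 at step 2, and PPL -0.50 at step 1. TMEM45B at step 1 was -2.21 to 4.78 over left-out cows, and A2ML1 at step 1 was 1.71 with DESeq2. The cause was not tested.

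Counts of genes called moved more. Leaving out the replicate block (cow) gave 130, 0, 3 and 209 genes at steps 1 to 4 in place of 1314, 6, 41 and 629, the 0 with 265 genes at an unadjusted p under 0.05 in edgeR. DESeq2, run only with the block, called 10 at step 2. Leaving out 1 cow gave 279 to 1621, 0 to 27, 18 to 54 and 276 to 579, the 0 (without cow 1) with 625 such genes. At step 1 a minimum of 1 UMI gave 97 and no deep cells 860. At step 2 library size scaling gave 3, no filter 57, minimums of 1 and 3 UMIs 1227 and 18, 10 BPIFA2C UMIs 3 and sums of 5 cells 20. At step 3 no filter gave 117, minimums of 1 and 3 UMIs 126 and 25, 2 BPIFA2C UMIs 25 and no deep cells 11. The share called higher was 54.5%, 50%, 75.6% and 47.4% at steps 1 to 4, and DESeq2 and library size scaling moved it at step 2 to 70% and 0%, at step 1 library size scaling moved it to 65.9%, and at step 4 the values were 69.4% and 35.7%. DESeq2 gave no adjusted p for PPL at steps 2 to 4 and EVPL at step 2.

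Onset positions moved in 11 of 98 cases. Some of these moves were fixed by construction, since leaving out class 4 shortens the scale to classes 0 to 3. Without class 4 the positions were 2.11 for TMEM79, 2.56 for TGM3, 2.58 for TMEM45B, 2.72 for TGM1 and 2.95 for A2ML1. TGM1 was at 3.83 with 10 BPIFA2C UMIs, and TMEM79 at 3.01 with all genes in the totals, 3.09 and 2.88 with minimums of 1 and 3, 3.00 with 10 BPIFA2C UMIs and 2.87 without deep cells. The median log2 change of all genes at step 4 was -0.28 with DESeq2 and -0.56 with library size scaling. Class 1 and class 4 are small, which limits what can be said of TGM1, A2ML1, PPL and EVPL there.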
